A study of Mus musculus with 22 samples.

Results

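The regions compared here were the H3K4me3 peaks of mouse embryonic stem cells in 2 genotypes, 27418 peaks from wild-type cells and 26960 from cells with a gene trap in Mtf2. They make up 54378 of the 76045 regions in the 7 peak lists of the series. All peaks of both lists were taken. A peak was called shared when a peak of the other list overlapped it by at least 1 bp, and otherwise wild-type-only or gene-trap-only. Each peak was placed at a promoter (within 1 kb of a transcription start site, TSS, of a protein-coding gene in the basic set of GENCODE M21), in a gene body, or between genes (intergenic).

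The study used chromatin immunoprecipitation and sequencing (ChIP-seq) in stem cells grown with serum and LIF, a cytokine that keeps them undifferentiated. The wild-type cells were the E14 line. The gene-trap cells are labelled Mtf2 GT/GT and carry a cassette that interrupts the Mtf2 coding sequence; their cell line field names no parent line, although the description of their libraries names E14. Genotype and cell line therefore cannot be told apart. Each group had 2 libraries, made with 1 antibody lot, and 1 peak list. The lists hold positions only, so depth is unknown, no spread between replicates could be measured and no test was run. The 95% intervals are exact Clopper-Pearson intervals that cover counting error over regions only. MTF2 peaks of gene-trap cells were not analysed here, so its loss could not be checked.

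H3K4me3 is a histone mark laid down by the SET1 and MLL (KMT2) enzymes, chiefly at the start of active genes and at CpG islands. At silent developmental genes of stem cells it often lies beside H3K27me3, the mark of Polycomb repressive complex 2 (PRC2), in what is called a bivalent promoter. MTF2 is a Polycomb-like protein that binds unmethylated CpG-rich DNA and brings PRC2, with its catalytic subunit EZH2, to such sites.

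The CpG content of the DNA differed between wild-type-only and shared gene-body peaks, so example sequences are given first. All are from GRCm38 (the promoters from RefSeq, GRCm38.p6), read 5′ to 3′ on the strand given, with each CG in capitals. The first 3 are 300 bases at the centre of a peak inside an intron. They were chosen with the peak and the printed bases both near the median CpG density of wild-type-only, shared and gene-trap-only gene-body peaks. They lie in Por (chr5:135725281-135725580, plus strand, wild-type-only), Ptprn2 (chr12:117159824-117160123, plus strand, shared) and Ets1 (chr9:32672232-32672531, plus strand, gene-trap-only), and hold 5, 10 and 9 CG.
Por intron: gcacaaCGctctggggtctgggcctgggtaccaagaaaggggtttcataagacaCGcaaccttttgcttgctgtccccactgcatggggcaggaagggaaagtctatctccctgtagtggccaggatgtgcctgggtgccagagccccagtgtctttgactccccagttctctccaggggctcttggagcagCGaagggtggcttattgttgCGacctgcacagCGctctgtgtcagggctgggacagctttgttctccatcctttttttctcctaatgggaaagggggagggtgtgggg
Ptprn2 intron: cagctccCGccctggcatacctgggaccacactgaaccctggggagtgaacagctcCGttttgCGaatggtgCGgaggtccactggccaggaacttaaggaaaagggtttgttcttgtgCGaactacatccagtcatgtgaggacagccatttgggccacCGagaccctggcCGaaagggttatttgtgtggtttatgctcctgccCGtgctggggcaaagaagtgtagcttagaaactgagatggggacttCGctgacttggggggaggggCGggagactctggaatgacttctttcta
Ets1 intron: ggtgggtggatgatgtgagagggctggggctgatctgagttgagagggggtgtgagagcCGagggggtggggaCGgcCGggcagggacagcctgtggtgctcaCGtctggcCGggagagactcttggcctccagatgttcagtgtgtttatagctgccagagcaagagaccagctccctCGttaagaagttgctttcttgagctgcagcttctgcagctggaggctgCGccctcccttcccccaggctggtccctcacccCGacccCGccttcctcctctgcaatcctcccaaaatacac
The next 5 are the 250 bases before the RefSeq start of 5 genes whose promoters are described below. Hoxd12 (chr2:74674763-74675012, plus strand, 10 CG) and Hprt (chrX:52987828-52988077, plus strand, 17 CG) had the mark in the gene-trap list only. Gria2 (chr3:80802836-80803085, minus strand, 19 CG) had it in the wild-type list only. Mtf2 (chr5:108065424-108065673, plus strand, 23 CG) and Zfp42 (chr8:43307010-43307259, minus strand, 9 CG) had it in both, over a much shorter stretch in gene-trap cells.
Hoxd12 promoter: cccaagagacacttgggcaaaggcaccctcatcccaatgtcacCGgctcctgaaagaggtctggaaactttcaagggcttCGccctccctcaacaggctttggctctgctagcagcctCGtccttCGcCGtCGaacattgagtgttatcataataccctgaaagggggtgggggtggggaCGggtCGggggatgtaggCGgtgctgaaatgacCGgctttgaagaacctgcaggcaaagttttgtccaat
Hprt promoter: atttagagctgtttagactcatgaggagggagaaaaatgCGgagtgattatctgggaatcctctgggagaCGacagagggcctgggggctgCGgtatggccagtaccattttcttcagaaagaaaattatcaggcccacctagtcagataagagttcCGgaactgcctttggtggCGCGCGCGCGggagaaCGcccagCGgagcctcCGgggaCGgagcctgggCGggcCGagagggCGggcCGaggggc
Gria2 promoter: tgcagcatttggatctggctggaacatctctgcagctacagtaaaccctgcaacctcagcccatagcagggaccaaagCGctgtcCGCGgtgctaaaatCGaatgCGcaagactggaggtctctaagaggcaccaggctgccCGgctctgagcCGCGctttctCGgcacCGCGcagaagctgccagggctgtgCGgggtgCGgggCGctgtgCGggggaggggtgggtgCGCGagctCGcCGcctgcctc
Mtf2 promoter: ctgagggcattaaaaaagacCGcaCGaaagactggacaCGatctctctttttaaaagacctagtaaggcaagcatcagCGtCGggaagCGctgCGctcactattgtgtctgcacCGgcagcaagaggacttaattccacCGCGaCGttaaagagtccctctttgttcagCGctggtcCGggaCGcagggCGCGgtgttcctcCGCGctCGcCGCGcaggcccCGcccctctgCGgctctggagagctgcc
Zfp42 promoter: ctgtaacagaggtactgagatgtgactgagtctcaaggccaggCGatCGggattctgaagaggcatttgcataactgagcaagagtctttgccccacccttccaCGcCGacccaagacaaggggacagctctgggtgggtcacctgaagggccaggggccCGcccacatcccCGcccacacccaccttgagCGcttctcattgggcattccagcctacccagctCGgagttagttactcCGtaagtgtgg

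Most H3K4me3 peaks were called in both genotypes, and what differed lay mainly away from promoters. Of the wild-type peaks, 22294 (81.3%, interval 80.8 to 81.8) were shared and 5124 (18.7%) were wild-type-only. Of the gene-trap peaks, 4472 (16.6%) were gene-trap-only. The covered length was 64.3 Mb in wild-type and 52.6 Mb in gene-trap cells, 81.8% of the wild-type length. The largest part of this drop was at promoter peaks, which covered 41.9 and 34.8 Mb. Gene-body peaks covered 13.5 and 8.30 Mb, and intergenic peaks 8.86 and 9.54 Mb. Bases in both lists made up 69.8% of the wild-type and 85.3% of the gene-trap length. In these bulk samples, fewer cells with the mark and less of the mark per cell cannot be told apart.

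At promoters, 260 of 13612 wild-type peaks (1.91%, interval 1.69 to 2.15) and 354 of 13734 gene-trap peaks (2.58%, 2.32 to 2.86) were in 1 list only. With genes of all types, these shares were 3.72% and 4.70%. In gene bodies these were 3228 of 7482 wild-type peaks (43.1%, 42.0 to 44.3) and 1369 of 5757 gene-trap peaks (23.8%, 22.7 to 24.9). Between genes the order turned, with 1636 of 6324 wild-type peaks (25.9%, 24.8 to 26.97) and 2749 of 7469 gene-trap peaks (36.8%, 35.7 to 37.9). Gene bodies thus held 63.0% of the wild-type-only peaks, and intergenic DNA held 61.5% of the gene-trap-only peaks. The covered length in gene-trap cells was 82.9% of wild type at promoters, 61.6% in gene bodies and 108% between genes.

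**Figure D1:**
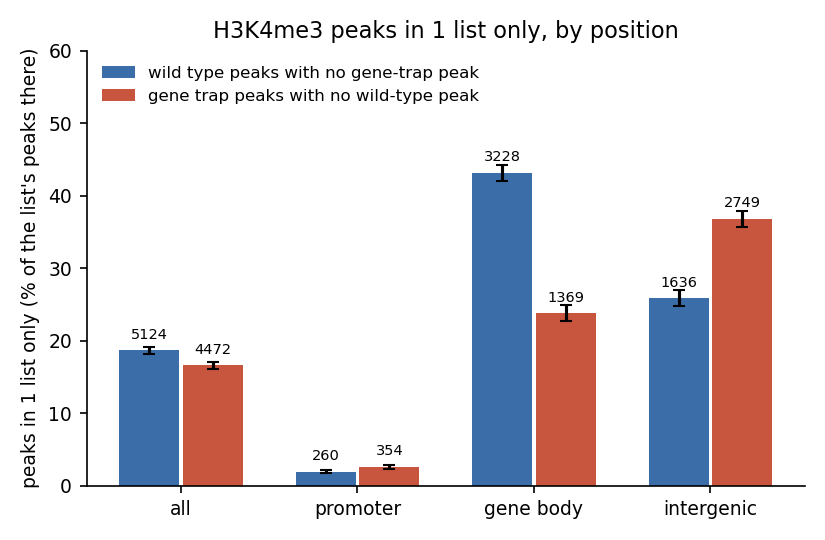
Share of peaks found in 1 list only (%, y axis, from 0) for all peaks and by position (x axis), for the wild-type and the gene-trap list; bars carry the exact 95% interval and numbers above them are peaks. Wild-type-only peaks are most frequent in gene bodies (43.1%) and gene-trap-only peaks between genes (36.8%).

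Few peaks lay near the border between shared and not shared. The smallest overlap of a shared wild-type peak was 37 bp, and only 1 was overlapped by 100 bp or less. The median shared wild-type peak was covered over 91.8% of its length. On the other side of the border, 7 wild-type-only peaks had a gene-trap peak within 500 bp, the nearest after a gap of 22 bp, and 1 gene-trap-only peak had a wild-type peak that close. The median gap to the other list was 13400 bp for wild-type-only and 29640 bp for gene-trap-only peaks.

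The peaks of 1 list had lower median widths than shared ones, least so in wild-type gene bodies. There the median width was 1239 bp for wild-type-only and 1300 bp for shared peaks. At promoters the wild-type-only median was 1035 bp against 2327 bp for shared peaks, and between genes it was 879 bp against 1040 bp. Gene-trap-only peaks had medians of 818 bp at promoters, 731 bp in gene bodies and 749 bp between genes. Width thus moved with the class and the list, and its part in the counts was not tested.

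Wild-type-only gene-body peaks lay in CpG-poor DNA. Their median density was 1.71 CpG per 100 bp, against 3.40 in shared wild-type gene-body peaks and 3.23 in gene-trap-only ones. By density, the wild-type-only share of gene-body peaks was 80.5% (interval 77.3 to 83.4) under 1 CpG per 100 bp, 63.2% from 1 to 2, 45.6% from 2 to 3, 23.4% from 3 to 4, 20.8% from 4 to 6, and 4.26% (2.58 to 6.57) at 6 or more. In the gene-trap list the share of gene-body peaks in 1 list only stayed between 23.0% and 27.2% in the classes below 6 and was 9.41% at 6 or more. The printed introns of Por, Ptprn2 and Ets1 were chosen near these medians, so they illustrate the difference and are no further evidence for it.

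**Figure D2:**
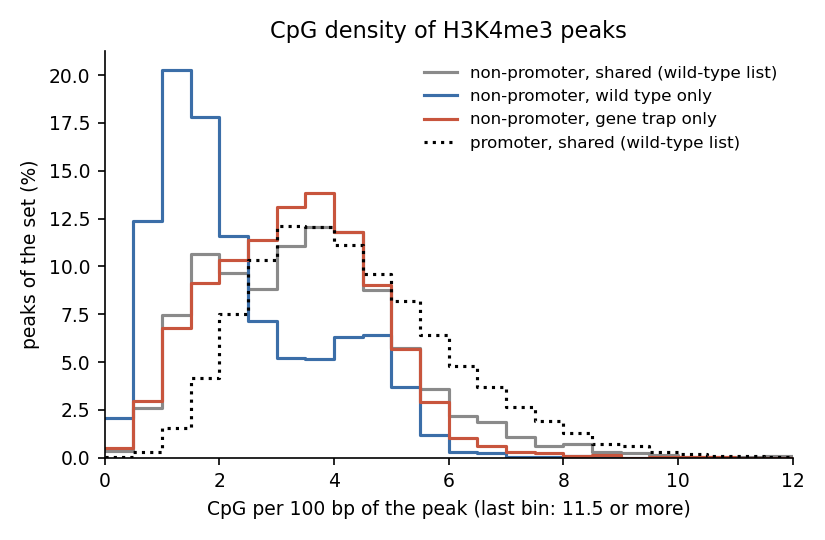
Distribution of CpG density (CpG per 100 bp, x axis) as the share of peaks in each bin (%, y axis) for peaks outside promoters (gene bodies and intergenic together) that are shared, wild-type-only or gene-trap-only, with shared promoter peaks as a dotted line. The wild-type-only curve lies at lower density (median 1.91) than those of shared (3.47) and gene-trap-only (3.32) peaks.

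Between genes, the densities were closer, with medians of 2.83 in wild-type-only, 3.53 in shared and 3.39 in gene-trap-only peaks. Repeats (soft-masked bases of the reference) covered more than 50% of the peak in 44.9% of wild-type-only and 44.8% of gene-trap-only intergenic peaks, against 30.1% of shared ones. In gene bodies this held for 10.2% of wild-type-only, 9.97% of shared and 28.0% of gene-trap-only peaks. Reads in repeats can be hard to place, and how they were treated is not given in the sources used here.

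The wild-type-only gene-body peaks sat early in genes whose promoter carried H3K4me3. Their median position was 40.6% of the way along the host gene, against 59.3% for shared and 57.2% for gene-trap-only peaks. The first of 3 equal parts of the gene held 41.9% of them, against 27.6% of shared and 28.4% of gene-trap-only peaks. The host promoter carried wild-type H3K4me3 for 93.7% of wild-type-only, 83.5% of shared and 80.1% of gene-trap-only peaks. They lay in 2139 genes. Fgfr2, a growth factor receptor, held the most with 17, followed by the predicted gene Gm20388 with 14, Tmem131 with 12, Gse1 with 11 and Kat6b, a histone acetyltransferase, with 10. Jarid2, a PRC2 subunit, Ankrd11, a chromatin regulator, Pitpnc1, Tanc1 and Zfp710 held 9 each. These hosts were ranked after their values were seen.

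Gene-trap-only gene-body peaks were more scattered, in 1158 genes. Counted once per peak, the median length of the host gene was 90.1 kb, against 78.1 kb for wild-type-only and 58.2 kb for shared peaks. Where a peak lay in several genes, the shortest was taken, passing over predicted genes. The most in 1 gene was 5, in Gm20388 and in Dlg2, which encodes a scaffold protein of synapses. The hosts with 4 were Ctnna3, Epha6, Erbb4, Fhit, Myh14, Prkg1, Ptprn2, Rbfox3 and Slc22a22. Distance from a TSS went with the gene-trap-only share. Over all peaks outside promoters it was 20.5% (interval 18.6 to 22.4) at 1 to 5 kb, 29.7% at 10 to 50 kb and 45.5% (43.6 to 47.4) beyond 100 kb. The wild-type-only share at the same distances was 29.1%, 37.5% and 33.8%.

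The widest peaks of 1 list were long stretches away from promoters. Among wild-type-only gene-body peaks the widest was in Tet1, an enzyme that oxidises 5-methylcytosine, at chr10:62832633-62853644 (21012 bp, 1.25 CpG per 100 bp, 27.8% repeat). Others were in Larp1, an RNA-binding protein gene (17129 bp, 25.1% repeat), and Tns3 (12402 bp, 23.0%). Between genes, the widest wild-type-only peaks were nearest to Pex2 (10986 bp, 99.1% of it repeat), Ttc29 (10218 bp, 74.5%) and Zfp202 (9448 bp, 20.6%). In the gene-trap list the widest gene-body peaks were in Gm20388 (11402 bp, 68.1% repeat), Gm38392 (10799 bp, 55.4%), Wiz (10539 bp, 68.6%), Sh3bp4 (9817 bp, 63.5%) and Nxn (9201 bp, 24.5%). Between genes they were nearest to Pou3f1 (8327 bp, 73.2% repeat), Snx5 (8081 bp, 46.7%) and Prkd1 (7492 bp, 76.9%). Of these 14 peaks, 1 overlapped a wild-type H3K27me3 peak, that in Nxn, and none overlapped an MTF2 or EZH2 peak of any list.

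Outside promoters, H3K4me3 peaks at sites that carried Polycomb in wild-type cells were shared more often than others, seen from either list. In gene bodies, 14 of 834 wild-type peaks overlapped by an MTF2 peak were wild-type-only (1.68%, interval 0.921 to 2.80), against 3214 of 6648 without MTF2 (48.3%, 47.1 to 49.6). With wild-type H3K27me3 it was 47 of 1184 (3.97%), against 3181 of 6298 without (50.5%). In the gene-trap list, 5.48% of gene-body peaks with wild-type MTF2 were gene-trap-only against 26.99% without, and 13.5% against 39.4% between genes. MTF2 sites are CpG-rich. For wild-type gene-body peaks at 4 or more CpG per 100 bp, the wild-type-only share was 1.25% (0.574 to 2.36) with MTF2. Without MTF2 it was 26.5% (24.0 to 29.2).

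At promoters the differences were smaller, and for H3K27me3 they did not hold in every class of CpG density. With wild-type H3K27me3, 25 of 3993 promoter peaks were wild-type-only (0.626%, interval 0.406 to 0.923), against 235 of 9619 without (2.44%, 2.14 to 2.77; 4.87% with genes of all types). From 2 to 4 CpG per 100 bp the values were 2.35% (1.18 to 4.17) with and 1.68% (1.35 to 2.06) without, so that here the order turned and the intervals overlapped. At 4 or more they were 0.369% and 0.785%, again with overlapping intervals. For MTF2 the order held in both classes, with 0 of 302 peaks (upper limit 1.21%) against 1.83% (1.49 to 2.22) from 2 to 4, and 0.0626% (0.00759 to 0.226) against 1.01% (0.715 to 1.38) at 4 or more. In the gene-trap list, 2.05% of promoter peaks with wild-type H3K27me3 and 2.80% without were gene-trap-only. From 2 to 4 CpG per 100 bp this turned, with 7.25% (5.16 to 9.86) with and 3.47% (2.96 to 4.03) without. At 4 or more the shares were 1.27% and 1.15%, with overlapping intervals. For MTF2 they were 2.99% with and 3.90% without from 2 to 4, and 0.877% and 1.42% at 4 or more, with overlapping intervals.

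Shared peaks were on the whole slightly shorter in gene-trap cells, more so where wild-type H3K27me3 was absent, at promoters and in gene bodies. Peaks of both lists that overlap were joined into 22128 groups, and the summed width in each list was compared as log2 of gene trap over wild type. The median was -0.08 over all groups, -0.12 at promoters, -0.06 in gene bodies and 0.02 between genes. Of all groups, 1057 (4.78%) were at least 2-fold narrower and 479 (2.16%) at least 2-fold wider in gene-trap cells. At promoters with wild-type H3K27me3 the median was 0.01 (3975 groups, 48.7% below 0), and without it -0.18 (9380 groups, 79.0% below 0). In gene bodies it was 0.02 with H3K27me3 (1092 groups, 47.4% below 0) and -0.11 without (3056 groups, 62.1% below 0). Without H3K27me3, 367 of 3056 gene-body groups and 465 of 9380 promoter groups were at least 2-fold narrower. For MTF2 the promoter medians were 0.01 with and -0.17 without, and for EZH2 the same 0.01 and -0.17.

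Width itself goes with H3K27me3, since the median wild-type width of these groups was 1813 bp with and 2594 bp without the mark. In 5 classes of equal size by mean width, from the narrowest to the widest, promoter medians with H3K27me3 were 0.12, 0.03, -0.000726, -0.03 and -0.02. Without it they were 0.04, -0.09, -0.14, -0.18 and -0.30. The promoters without H3K27me3 were lower in every class, and the gap was widest among the widest peaks. Very wide peaks were fewer in the gene-trap list, with 2264 against 1271 of at least 5 kb, 468 against 136 of at least 10 kb, and 60 against 8 of at least 20 kb.

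**Figure D3:**
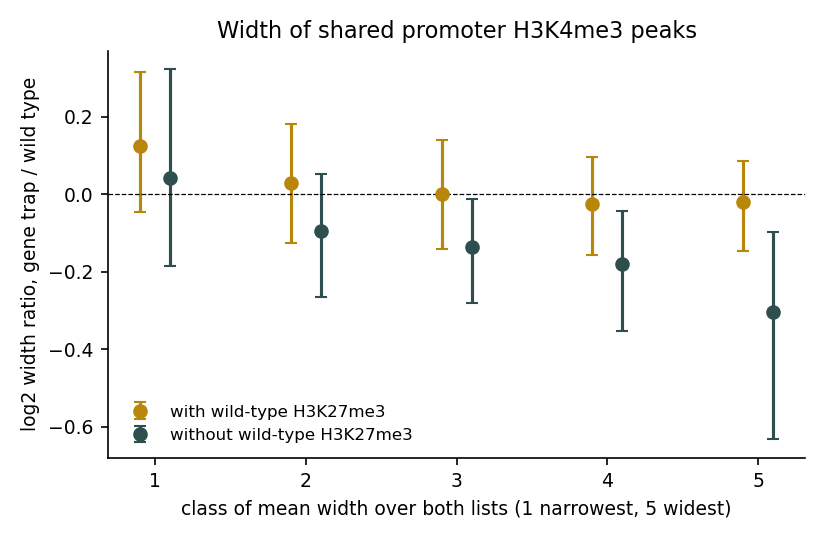
Median log2 width ratio, gene trap over wild type (y axis), of shared promoter groups in 5 classes of mean width (x axis, narrow to wide), with and without wild-type H3K27me3; bars span the quartiles. Medians without H3K27me3 fall from 0.04 to -0.30, and those with it lie between 0.12 and -0.03.

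At promoters the shortening was mainly at the end of the peak inside the gene. Over 11324 promoter peaks that matched 1 to 1 and had an unambiguous direction, the edge upstream of the gene moved by a median of -11 bp and the downstream edge by -113 bp, negative meaning inward. Without H3K27me3 (7781 peaks) the medians were -23 and -205 bp, and 27.4% of downstream edges moved inward by at least 500 bp against 4.01% of upstream edges. With H3K27me3 (3543 peaks) the medians were 7 and -2 bp. In the widest class of wild-type peaks the downstream edge moved by -944 bp without (2288 peaks) and -76 bp with H3K27me3 (433 peaks). That class was picked by wild-type width alone, a choice that by itself favours inward shifts, and the size of this part was not measured.

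**Figure D4:**
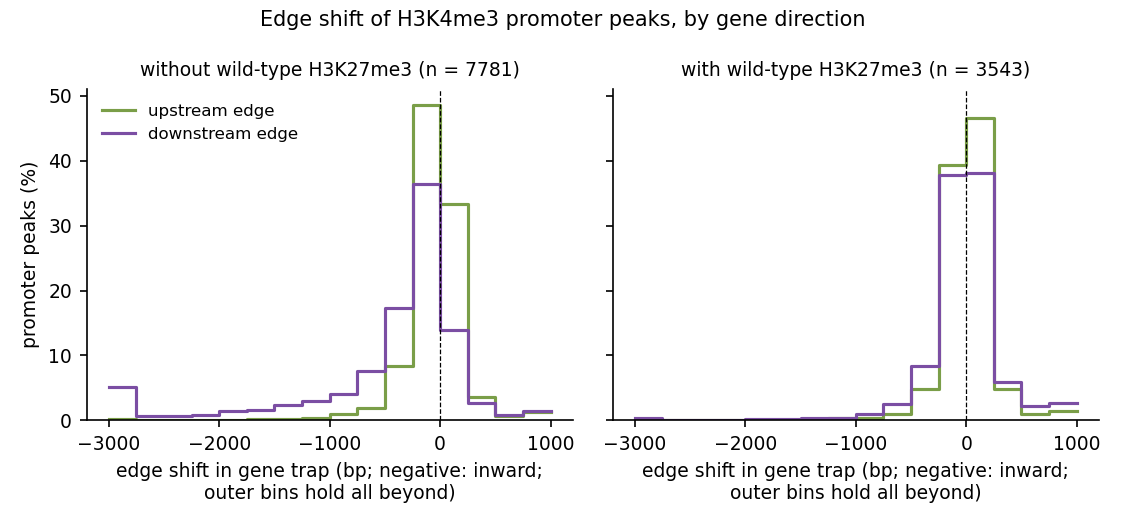
Shift of the upstream and the downstream edge of matched promoter peaks in gene-trap cells (bp, x axis, negative is inward; the outer bins hold everything beyond) as the share of peaks in each bin (%, y axis), with and without wild-type H3K27me3. The downstream edge without H3K27me3 has the long inward tail, with 27.4% of peaks moved by at least 500 bp.

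Genes that held wild-type-only peaks in their body had a lower width ratio at the promoter, although their promoter peaks were wider in both lists. The median log2 width ratio at the promoter was -0.12 in 12250 genes with 0 such peaks, -0.19 in 1368 genes with 1, -0.28 in 453 genes with 2 or 3, and -0.36 in 133 genes with 4 or more. The share at least 2-fold narrower was 2.66%, 7.24%, 10.4% and 13.5%. Promoter widths rose in the same order, from a median of 2417 to 6449 bp in wild-type and from 2188 to 4945 bp in gene-trap cells, and the part of width in this was not tested.

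Counted by gene, H3K4me3 was at the promoter of 14380 of 21951 protein-coding genes in wild-type and 14509 in gene-trap cells, 14208 of them in both. It was lost at 172 genes (1.20% of those with it) and gained at 301 (3.98% of the 7571 without it). With genes of all types counted, 691 lost and 810 gained it. Of genes with it in both, 490 (3.45%) were at least 2-fold narrower and 107 (0.753%) at least 2-fold wider. Most of these calls were small peaks, with a median width of 1008 bp at lost and 818 bp at gained genes. At 20 lost genes a gene-trap peak still lay in the same wild-type peak, outside the promoter window, and at 152 the whole peak was absent. In the 250 bases before the TSS, genes with the mark in both lists had a median of 18 CpG, lost genes 5, gained genes 7 and genes with neither 2.

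The genes with MTF2 at the promoter in wild-type cells almost all had H3K4me3 there, 3437 of 3485. They lost it at 2 genes (0.0582%, interval 0.00705 to 0.210), against the background of 1.20%. Of the 48 without it, 39 gained it (81.2%, 67.4 to 91.1), against 262 of 7523 genes with neither MTF2 nor wild-type H3K4me3 (3.48%) and 3.98% overall. These sets were not matched for CpG. The median before the TSS was 2 CpG at genes marked in neither list and 9 at gained genes with wild-type H3K27me3. The part of CpG content in this was not tested. Chromosome X held 10 of the 48 genes and 9 of the 39. The gained peaks at these 39 genes had a median width of 1332 bp, from 374 to 3483 bp. Wild-type H3K27me3 was at 35 of the 39 and gene-trap H3K27me3 at 13. In 6 of them the gene-trap peak reached a wild-type peak outside the window. Among genes with wild-type H3K27me3, 78 of 223 without H3K4me3 gained it (35.0%, 28.7 to 41.6) and 31 of 3991 lost it (0.777%).

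Mtf2 itself had the largest narrowing among the members of the 20 gene lists examined. At Mtf2, the trapped gene, H3K4me3 covered 21320 bp in wild-type cells (chr5:108060043-108081362) and 4185 bp in gene-trap cells, a log2 ratio of -2.35. A gene-trap peak of 3369 bp remained over the promoter (chr5:108065026-108068394), so the start of the gene was still marked. Another 2 wild-type peaks in the gene body, of 1828 and 1615 bp, and 1 upstream, of 2299 bp, were wild-type-only. Jarid2, which encodes another PRC2 partner, had the widest wild-type peak of all, 68628 bp, against 28306 bp in 2 gene-trap peaks (-1.28), besides its 9 wild-type-only peaks.

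The other PRC2 genes had smaller differences. Eed, the subunit that binds H3K27me3, went from 14146 to 7869 bp (-0.85), Suz12, a core subunit, from 5641 to 4394 bp (-0.36) and Ezh2 from 4242 to 3549 bp (-0.26). Of the other Polycomb-like genes, Phf1 had 1795 and 1328 bp (-0.43) and Phf19 2392 and 2435 bp (0.03). Ezh1, which encodes the second catalytic subunit, had 1343 and 1591 bp (0.24), the highest ratio of the 14 genes. All 14 had the mark in both lists, the median ratio was -0.33 against -0.13 over all genes, and 2 of the 14 were at least 2-fold narrower, against 3.45% of all genes. Only 1 of the 14 had wild-type H3K27me3, and their median wild-type length was 5774 bp. Promoter groups without H3K27me3 in the widest class by mean width had a similar median of -0.30, with 10.9% at least 2-fold narrower. The difference from all genes was thus not particular to PRC2 genes.

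The PRC1 components (the other Polycomb complex, which ubiquitinates H2A) had a median of -0.13 over 21 genes, the same as all genes. Rybp, a subunit of the variant complexes, went from 15694 to 5294 bp (-1.57), and Phc2 had the highest ratio with 3997 and 4696 bp (0.23). Among 17 marked genes for the writers and erasers of H3K4 methylation the median was -0.21. Rbbp5, a shared subunit of the SET1 and MLL complexes, went from 9577 to 3568 bp (-1.42), and Cxxc1, its CpG-binding partner in SET1 complexes, had 3418 and 4806 bp (0.49).

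**Figure D5:**
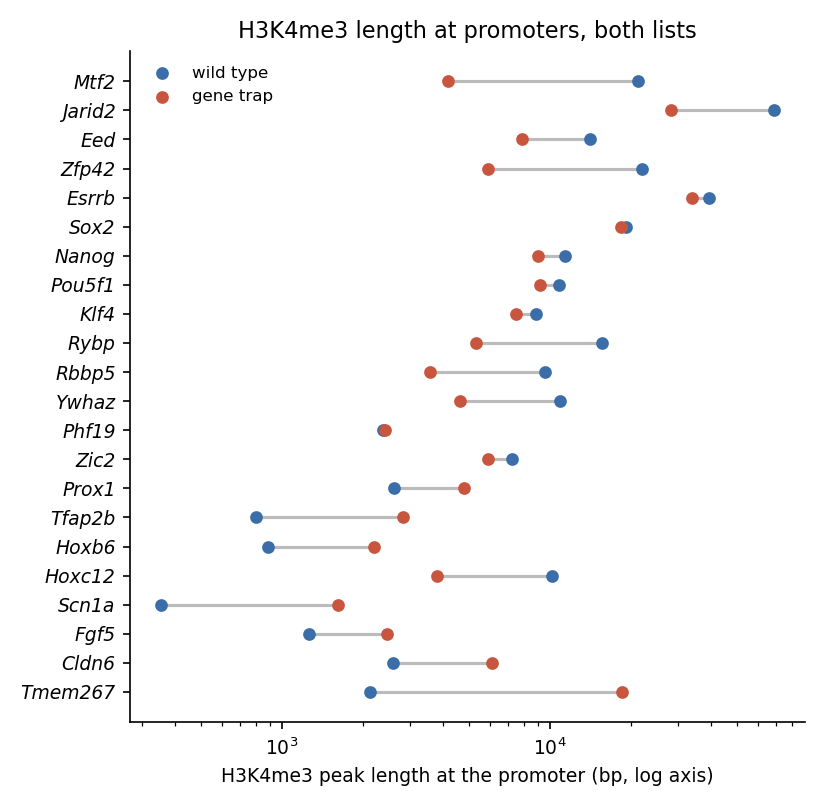
H3K4me3 length at the promoter (bp, log axis) in the wild-type and gene-trap list for named genes, 1 point per list. Mtf2, Jarid2, Zfp42 and Rybp are shorter in gene-trap cells, and Tfap2b, Hoxb6 and Scn1a longer.

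All 29 pluripotency factors were marked in both lists, and 2 were at least 2-fold narrower in gene-trap cells, against 3.45% of all genes. Median lengths were 9222 bp in wild-type and 7764 bp in gene-trap cells (median ratio -0.19, against -0.13 over all genes). Only 3 of the 29 had wild-type H3K27me3. Promoter groups without H3K27me3 in the widest class by mean width had a lower median of -0.30, with 10.9% at least 2-fold narrower. The pluripotency factors thus showed no more narrowing than other wide peaks of that kind. The main markers of the cell type were among the 29. Pou5f1, which encodes OCT4, had 10799 and 9221 bp (-0.23), Nanog 11428 and 9024 bp (-0.34), Klf4 8872 and 7492 bp (-0.24), Esrrb 39395 and 33891 bp (-0.22) and Sox2 19269 and 18435 bp (-0.06). Zfp42, also called Rex1 and a marker of the naive state, went from 21983 bp to 5894 bp in 2 peaks (-1.90). Dnmt3l, a cofactor of the DNA methyltransferases, had 6333 and 10451 bp (0.72). The 14 epiblast genes had a median of 0.12, and Fgf5, a marker of the primed state, had 1268 and 2462 bp (0.96), short of 2-fold.

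The lists of Hox, neural, mesoderm, endoderm and signalling regulators, mostly bivalent, held 0 lost promoter peaks, near the share of 1.20% over all genes. All 39 Hox genes had H3K27me3 in wild-type cells. H3K4me3 was at 34 of them in wild-type and at all 39 in gene-trap cells. The 5 gains were Hoxd12 (3267 bp), Hoxb2 (3256 bp), Hoxb3 (2592 bp), Hoxa3 (2265 bp) and Hoxb1 (1459 bp). At 3 of them, Hoxd12, Hoxb2 and Hoxb3, the gene-trap peak overlapped a wild-type peak outside the promoter window (1278, 2454 and 1172 bp). Hoxb6 had the highest ratio, with 891 and 2207 bp (1.31), and Hoxc12 the lowest, with 10199 and 3783 bp (-1.43). By cluster, HoxD was covered over 17.1 kb in wild-type and 26.7 kb in gene-trap cells, HoxB over 30.5 and 35.9 kb, HoxA over 34.8 and 37.8 kb, and HoxC over 36.3 and 27.3 kb. HoxC was the only cluster with less coverage in gene-trap cells, most of the difference being at Hoxc12. Hoxc11 (-0.31), Hoxc13 (-0.18) and Hoxc4 (-0.03) also had ratios below 0, while Hoxc5, Hoxc6, Hoxc8, Hoxc9 and Hoxc10 had ratios of 0.03 to 0.39.

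Neural regulators had H3K4me3 at 76 of 78 promoters in wild-type and at all 78 in gene-trap cells, the wider of the gains being at Zic4 (1940 bp), a cerebellar zinc-finger gene. The median ratio was 0.05, and of the 76 marked in both lists 4 were at least 2-fold wider and 1 narrower, against 0.753% and 3.45% of all genes. Wild-type H3K27me3 was at 77 of the 78 genes. Among all genes with it that were marked in both lists, 1.29% were at least 2-fold wider and 0.758% narrower. Tfap2b, a neural crest factor, had 798 and 2835 bp (1.83), and Neurog3, a proneural and endocrine factor, 6378 and 2641 bp (-1.27). Mesoderm and heart regulators were marked at 31 of 34 in both lists (median 0.06), with Tbx4, a hindlimb gene, at 2073 and 4007 bp (0.95) and Tbx6, a gene of the presomitic mesoderm, at 1831 and 1045 bp (-0.81). Endoderm regulators were marked at 18 of 19 in both (median -0.08), with Prox1, a gene of liver and lymphatic cells, at 2631 and 4768 bp (0.86).

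Signalling ligands and inhibitors were marked at 42 of 45 in both (median -0.03), with the lowest ratio at Fgf10, a limb and lung growth factor, at 3991 and 2319 bp (-0.78). Channel and receptor genes of neurons were marked at 33 of 37 in each list (median 0.01). Gria2, a glutamate receptor gene, lost a peak of 482 bp at its promoter, the only loss among the members of the 20 lists. Snap25, a gene for synaptic vesicle fusion, gained a peak of 2122 bp without MTF2 or H3K27me3 in wild-type cells. Scn1a, a sodium channel gene, had 354 and 1619 bp (2.19).

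Imprinted genes (median 0.07) were marked at 22 of 25 and then 23, with a gain of 1555 bp at Plagl1, a zinc-finger gene expressed from the paternal allele. Germline genes (median 0.07) were marked at 15 of 26 and then 16, with a gain of 346 bp at Asz1, a gene of piRNA biogenesis. Tex19.1, a gene of germ cells and stem cells, had 1139 and 2490 bp (1.13). Of the two-cell-stage genes, 1 of 15 was marked in both lists. Extracellular matrix and epithelial genes had a median of -0.01, and the claudin gene Cldn6 had 2595 and 6077 bp (1.23). Cell cycle inhibitors were marked at all 7 in both (median 0.01).

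Markers of other cell types were described in the same way. Fibroblast markers, as of feeder cells, were at 7 of 15 promoters in wild-type and 8 in gene-trap cells, the gain being 267 bp at Pdgfrb. Primitive endoderm markers were at 11 of 14 and trophoblast markers at 10 of 14 in both lists. Wild-type H3K27me3 was at 7, 9 and 10 promoters of these lists. As background, bivalent promoters carry H3K4me3 while the gene is silent, and the share of other cells in the cultures was not tested.

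Housekeeping genes had a median of -0.27 over 29 genes, and Ywhaz, a 14-3-3 protein gene, went from 10924 to 4613 bp (-1.24). The 1 gain among them was Hprt, the purine salvage gene on chromosome X. No wild-type peak touched its promoter, and the gene-trap list had a peak of 2646 bp (chrX:52987646-52990291). The nearest wild-type peak upstream (chrX:52911775-52913762) was shared. The nearest downstream (chrX:53050265-53050629, 365 bp) was wild-type-only, and the next (chrX:53052239-53052738) was shared. As background, stem cell lines derived from E14 include HPRT-deficient ones in which part of Hprt is deleted. The labels say only E14, and whether the DNA of the 2 lines differs at this gene was not tested.

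Outside the lists, the widest losses and gains were at genes of unlike function. At 3 of the 8 genes with the widest lost peak the whole peak was absent from the gene-trap list, namely Morc1, a gene for silencing transposons in germ cells (5404 bp), Fam25c (4687 bp) and Emp1, an epithelial membrane protein gene (3623 bp). At Zfp987 (8075 bp), Zfp626 (4450 bp), Lst1 (4325 bp), Klhdc7a (4307 bp) and Bricd5 (4125 bp) a gene-trap peak remained elsewhere in the wild-type peak. The widest gains were at Catsperg1, a subunit of the sperm calcium channel (5443 bp), Ubd, a ubiquitin-like modifier (4845 bp), Rbbp8nl (4547 bp), Synpo2l (4097 bp), Sh2d4b (3950 bp), Pcsk1n (3884 bp), Dok2 (3585 bp) and Vrtn (3483 bp). At Synpo2l, Pcsk1n and Dok2 the gained peak reached a wild-type peak outside the window. Of these 16 genes only Vrtn had wild-type MTF2 and H3K27me3.

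Among genes outside the lists with at least 1000 bp of H3K4me3 in 1 list, the largest narrowing was at Sap25 (7331 to 626 bp, -3.55), Fxyd6 (15583 to 1590 bp, -3.29), Prss48 (3659 to 410 bp, -3.16), Cd59a (2198 to 293 bp, -2.91) and Dnah8 (5712 to 800 bp, -2.84). None of them had wild-type MTF2 or H3K27me3. The largest widening was at Tmem267 (2131 to 18564 bp, 3.12), Tdrd12, a gene of piRNA biogenesis (253 to 2152 bp, 3.09), Lctl (573 to 2947 bp, 2.36), Lrrc15 (1014 to 4238 bp, 2.06) and Tac1, the substance P gene (556 to 1960 bp, 1.82). Tac1 had wild-type MTF2 and H3K27me3, and Lrrc15 had H3K27me3.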

How the data were processed

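H3K4me3 was measured by ChIP-seq in 4 libraries, 2 per group. Per the submitters' processing notes the authors used CASAVA, BWA 0.7.10-r789 and MACS2 2.7 with the build mm10 (GRCm38), in an order not given there. Each deposited list gives region starts and ends in bp, without a score, count or signal. Per the labels 1 list stands for each pair of libraries, and the threshold, control and pooling are not given in the sources used here. The deposited lists' names carry the words MAnorm and unbiased, and no source says what was done under them. The annotation holds 21951 protein-coding genes. From the regions, overlap, position, width, CpG (in the whole peak) and repeats were computed with Python 3.11.15, numpy 2.4.6, scipy 1.17.1 and pysam 0.24.0. Starts counted from 0 were converted to 1-based positions. The overlap step was tested on a simulated list made from the 27418 wild-type peaks, and recovered 100% of the known classes.

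The lengths given for genes are the summed widths of the groups of overlapping peaks that touch any promoter window of the gene, so a gene with several promoters, such as Tmem267, can sum several groups. Of the 20 gene lists with 501 symbols, 10 symbols were not found among protein-coding genes. Named genes were Mtf2, Ezh2, Eed, Suz12, Jarid2, Phf1, Phf19 and 6 pluripotency genes, then per list the 2 widest losses, the 2 widest gains, the most narrowed and the most widened member. Outside the lists they were the 8 widest losses and gains and the 5 most narrowed and most widened genes with at least 1000 bp of H3K4me3 in a list, passing over predicted genes, and away from promoters the 5 widest gene-body and 3 widest intergenic peaks of each list. Hoxb3, Hoxa3, Hoxb1, the HoxC members other than Hoxc12 and the hosts of several peaks were named after their values were seen. Some items that the rule takes are not reported here. The members and lists were chosen with earlier results of these data known.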

Additional observations from a re-analysis of the deposited data

How the results depend on the processing

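In all, 18 results were recomputed under 8 alternatives, and 124 of the 144 values stayed within the interval of the reported value or, for counts, within 1.5 times. This tally includes values that could not change. The settings for promoters and gene types do not enter the shared share, the counts of peaks in 1 list or the overall width results. No direction turned. Merging peaks within 1 kb gave a shared wild-type share of 82.1%. With peaks of at least 500 bp, 44.5% of wild-type gene-body peaks were wild-type-only, the median log2 width ratio was -0.091 and 313 groups were at least 2-fold wider. With promoter windows of 2.5 kb, 2.62% of wild-type and 3.23% of gene-trap promoter peaks were in 1 list only, 44.6% of wild-type gene-body peaks, and 3.41% of promoter peaks without H3K27me3. With the TSS inside the peak these were 1.46%, 2.08%, 41.5% and 1.86%. With all gene types, promoter shares were 3.72% and 4.70% (4.87% without H3K27me3), intergenic shares 28.2% and 39.7%, and the gene-trap-only gene-body share 25.9%, while, with more genes counted, 691 lost and 810 gained the mark. For the other changes the cause was not tested. Depth is unknown, so a missing peak may lie below a threshold. No paired analysis was possible because each group has 1 list from both libraries, with no test; for the same reason no replicate could be left out.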
